A study of Mus musculus with 15 samples.

Results

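The secreted Wnt antagonists are proteins that cells release to block Wnt signalling outside the cell. The 8 genes described here are Sfrp1, Sfrp2, Sfrp4, Frzb, Dkk1, Dkk2, Dkk3 and Wif1, out of 19937 genes measured on the same arrays. They were listed by family membership, and the family was chosen by the log2 values of Sfrp1 on these arrays, which were far lower in every derived line (S42D, S42A, wild-type Twist1 and Tw1KD) than in parental cells. The comparisons with parental cells are therefore given for these 8 genes as a description, with no test. Each gene had 1 probe set, a group of probes on the array that report 1 transcript.

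Expression was measured in 4T1, a metastatic mammary carcinoma cell line of the mouse, on 15 arrays. The S42D, S42A and wild-type Twist1 lines were Tw1KD cells made to express Twist1 again, with aspartate at residue 42, with alanine there, or unchanged. The Tw1KD line was 4T1 cells depleted of their own Twist1, a basic helix-loop-helix transcription factor known for driving epithelial-mesenchymal transition. Parental 4T1 cells, untouched at Twist1, were the control, and each of the 5 lines had 3 arrays. One label of the S42D samples mentions the alanine form too, so that line is identified by its sample titles. All cells were kept in puromycin at 4 µg/ml and G418 at 800 µg/ml and harvested at 70% confluency, as the labels state for every sample alike. The labels give no separate word on resistance in parental cells, and unequal drug exposure could not be told apart from any difference between derived and parental cells. The method of depletion, the vectors and whether a line is 1 clone are not given in the sources used here.

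Wnt ligands bind Frizzled receptors together with the co-receptors Lrp5 and Lrp6, which keeps beta-catenin from being degraded and lets it act with Tcf and Lef factors on target genes. Sfrp proteins and Frzb carry a domain like that of Frizzled and bind Wnt ligands, Wif1 binds Wnt ligands through a domain of its own, and Dkk1 and Dkk2 act on Lrp5 and Lrp6. SFRP1 is known in human breast cancer as a gene often silenced by promoter methylation. Methylation was not measured here.

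Sfrp1 was bright in parental cells and dim in every derived line, the 3 lines with a returned form of Twist1 included. That is the pattern by which the family was chosen. Sfrp1, a secreted Wnt-binding protein of the Frizzled-related family, was read by probe set 10570957. Its log2 intensities were 5.13, 5.17 and 5.19 in the S42D line, 5.45, 5.21 and 5.25 with S42A and 5.25, 5.09 and 5.13 with wild-type Twist1. They were 5.27, 5.25 and 5.18 in the Tw1KD line, against 9.49, 9.16 and 9.41 in parental cells. The 12 arrays of the derived lines lay close together, and all of them were far below all 3 parental arrays. The line means were 5.16 ± 0.032, 5.31 ± 0.13, 5.15 ± 0.082 and 5.23 ± 0.048 in the S42D, S42A, wild-type Twist1 and Tw1KD lines, against 9.36 ± 0.17 in parental cells (SD, n = 3 each).

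The differences from parental cells were -4.19 for the S42D line, -4.05 for the S42A line, -4.20 for the wild-type Twist1 line and -4.12 for the Tw1KD line, each with a standard error of 0.081 on the log2 scale. In linear terms the intensity was lower by 18.3-fold, 16.6-fold, 18.4-fold and 17.4-fold in the same order. The differences stayed between -4.30 and -3.97 over all 24 alternative ways of processing and of leaving out 1 array. Intensities near the array background compress differences, so these sizes may understate those in transcript. In a bulk culture, fewer cells with the transcript and less transcript per cell cannot be told apart.

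Olfactory receptor genes, which carcinoma cells have no known use for, served as a guide to how a silent gene reads on these arrays. Over the 5 lines, 95% of the line means of 1027 such genes lay at or below 6.15, and their median was 4.41. Probe sets differ in brightness for reasons unrelated to expression, so this level is a guide and not a limit of detection. In all 4 derived lines Sfrp1 lay below it, and in parental cells it lay well above it.

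**Figure D1:**
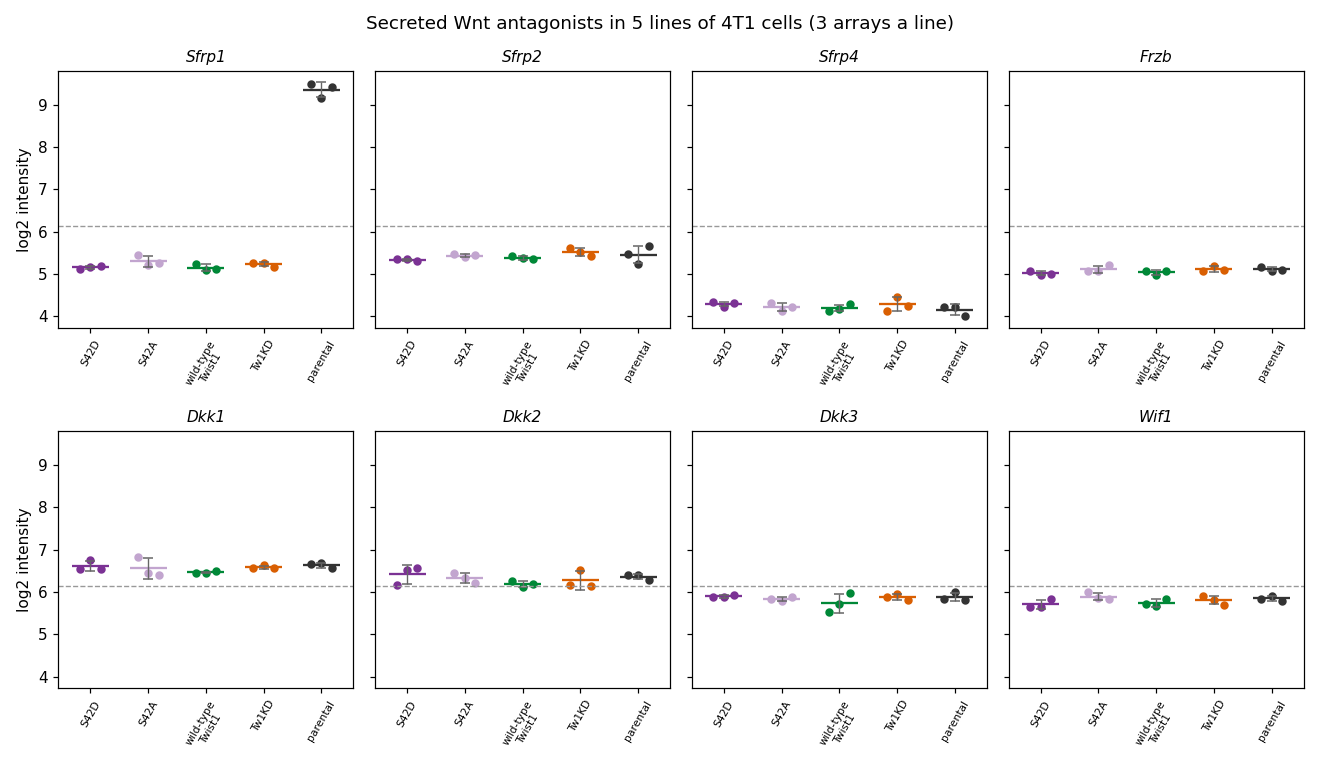
Log2 intensity (vertical axis) of each of the 8 antagonist genes on the 3 arrays of each line. Points are arrays, thick lines are means, bars are 1 SD and the dashed line is the background guide at 6.15. Sfrp1 is above the dashed line in parental cells only, while the 7 other genes keep nearly the same height in all 5 lines.

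Among the derived lines, Sfrp1 is also given as a description, because the family was chosen for a low Sfrp1 in all 4 of them and all 4 means lay below the guide. The largest differences in Sfrp1 were -0.14 for the S42D line against the S42A line and 0.15 for the S42A line against the wild-type Twist1 line. The 6 differences had 95% intervals with bounds from -0.32 to 0.32. The S42D and S42A arrays did not overlap in Sfrp1, at a difference well under the gap to parental cells, and that difference was -0.22 once the arrays were centred on their medians. At this brightness, differences in transcript among the derived lines may not show.

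Twist1 itself took another course over the same lines, with log2 intensities of 9.07, 8.96 and 8.97 in the S42D line, 8.60, 8.71 and 8.80 with S42A and 8.35, 8.49 and 8.16 with wild-type Twist1. They were 7.47, 7.23 and 7.35 in the Tw1KD line and 9.01, 9.03 and 9.07 in parental cells. The S42D line thus overlapped parental cells in Twist1, while its Sfrp1 arrays lay far below the parental ones. The array does not tell endogenous Twist1 from the introduced form here, because probe positions were not analysed.

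Among all genes, Sfrp1 had the largest difference shared by the 4 derived lines, ranked by the smallest of a gene's 4 differences from parental cells. For Sfrp1 that smallest difference was -4.05. It was followed by Cxcl15 at -3.35, a chemokine, by Osr1 at -2.87, a zinc finger transcription factor, and by Esrp1 at -2.62, an epithelial splicing regulator. Ccn4, a secreted matrix-associated protein reported as a Wnt target, came next at -1.96. These genes were picked after their values were seen. Only 4 genes were lower by more than 2 log2 in all 4 lines, and 34 were lower by more than 1 log2. Sfrp1, Cxcl15 and Esrp1 lay below the background guide in the derived lines, so their differences are bounded by their parental brightness and their order is not exact. This ranking uses the contrast through which Sfrp1 was chosen, so it describes the gene and tests nothing.

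**Figure D2:**
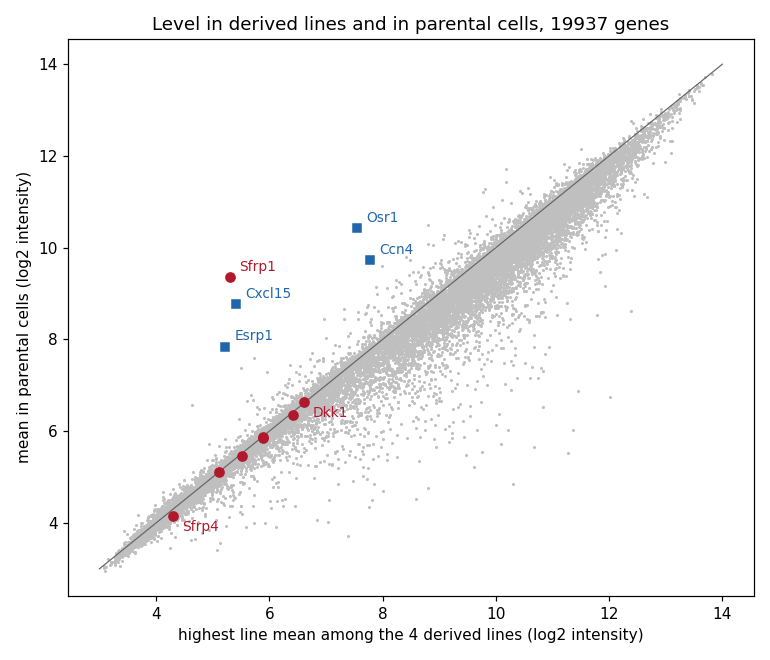
Each grey point is 1 of 19937 genes, with its highest line mean among the 4 derived lines on the horizontal axis and its parental mean on the vertical axis, both as log2 intensity. Red circles are the 8 antagonist genes and blue squares are Cxcl15, Osr1, Esrp1 and Ccn4; the grey line marks equal levels. Sfrp1 stands far above the line of equal levels and the 7 other antagonists lie on it.

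The genes whose pattern was most like that of Sfrp1 were named by Pearson correlation over the 15 arrays, among 2424 genes whose line means also ranged over more than 1 log2, from which predicted and clone-named gene models were left out. They were Esrp1 with r = 0.997, Cxcl15 with r = 0.985, Ccn4 with r = 0.983, Tet1 with r = 0.982 and Ctsc with r = 0.977. Tet1 encodes an enzyme that oxidises methylated cytosine, and Ctsc encodes a lysosomal protease. Over the 12 arrays of the derived lines alone, the same correlations were 0.52, 0.66, -0.15, 0.30 and -0.0034. All 5 genes share with Sfrp1 the step between parental cells and the derived lines. Within the derived lines the correlation was weaker for Esrp1, Cxcl15 and Tet1 and near or below 0 for Ccn4 and Ctsc. The points share their arrays and lines. Of the 8 antagonist genes, only Sfrp1 had line means that ranged over more than 1 log2.

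The 7 other antagonists were nearly flat over the lines. Their line means ranged over 0.095 log2 in Frzb to 0.22 log2 in Dkk2, against a median range of 0.36 over all genes. Their 28 differences from parental cells lay between -0.17 and 0.14, with standard errors of 0.054 to 0.11. In 20 cases the derived line was the lower one and in 8 the higher. This split depends on the scaling. With each array centred on its median, Frzb in the S42A line was at 0.076 in place of -0.0068. Dkk3 in the same line was at 0.039 in place of -0.044. For each of the 7 genes, lines next to each other in the order of means had overlapping arrays. Lines farther apart in that order did not overlap in a few cases of Sfrp2, Frzb, Dkk1 and Dkk2, which are given with each gene.

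Sfrp2 and Sfrp4 belong to the same Frizzled-related family as Sfrp1 and bind Wnt ligands. Sfrp2 (probe set 10492798) had log2 intensities of 5.35, 5.35 and 5.30 in the S42D line, 5.46, 5.40 and 5.44 with S42A and 5.44, 5.38 and 5.35 with wild-type Twist1. They were 5.61, 5.53 and 5.43 in the Tw1KD line and 5.48, 5.24 and 5.66 in parental cells. The S42D arrays lay below all Tw1KD arrays and all S42A arrays, and the parental arrays spanned nearly the whole range. The S42D difference from the Tw1KD line was -0.19, with an adjusted p of 0.075 by limma. That value passed the threshold without Tw1KD replicate 3, at -0.23 with an adjusted p of 0.048. It also passed without parental replicate 2 or 3, at an unchanged -0.19 and with adjusted p-values of 0.014 and 0.022. Centring arrays, fitting only the 2 lines and weighting arrays by quality gave adjusted p-values of 0.024, 0.036 and 0.0084 by limma. With these weights Sfrp2 was also lower in the S42A and wild-type Twist1 lines than in the Tw1KD line, by differences of -0.17 and -0.19.

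Sfrp4 (probe set 10403834) had log2 intensities of 4.35, 4.23 and 4.31 in the S42D line, 4.31, 4.12 and 4.23 with S42A and 4.14, 4.18 and 4.28 with wild-type Twist1. They were 4.14, 4.46 and 4.26 in the Tw1KD line and 4.23, 4.23 and 4.00 in parental cells. All 5 lines overlapped.

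Frzb, also called Sfrp3, is known for its part in cartilage and binds Wnt ligands. Its probe set, 10484307, read 5.07, 4.98 and 5.01 in the S42D line, 5.06, 5.06 and 5.21 with S42A and 5.08, 4.97 and 5.08 with wild-type Twist1. It read 5.07, 5.19 and 5.09 in the Tw1KD line and 5.17, 5.08 and 5.10 in parental cells. The S42D arrays lay just below the parental ones without overlap, and every other line overlapped parental cells. With centred arrays Frzb was called in the S42D against the S42A line, at -0.17 (adjusted p = 0.029 by limma).

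The Dkk genes encode secreted proteins with cysteine-rich domains. Dkk1, the inhibitor of Lrp5 and Lrp6 best known for its role in head formation and bone, was read by probe set 10467006. Its log2 intensities were 6.55, 6.75 and 6.54 in the S42D line, 6.84, 6.45 and 6.39 with S42A and 6.45, 6.45 and 6.49 with wild-type Twist1. They were 6.56, 6.63 and 6.56 in the Tw1KD line and 6.66, 6.68 and 6.56 in parental cells. The 3 wild-type Twist1 arrays lay below all arrays of the S42D, Tw1KD and parental groups, and S42A replicate 1 was the highest of the 15. Without S42A replicate 1, Dkk1 was called in the S42D line against the S42A line, at 0.19 with an adjusted p of 0.031. Without that array it was also called against the wild-type Twist1 line, at 0.15 with an adjusted p of 0.043. With arrays weighted by quality, Dkk1 was called in both comparisons (adjusted p = 0.024 and 0.037 by limma).

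Dkk2 also binds Lrp6, and its probe set, 10496125, read 6.16, 6.52 and 6.56 in the S42D line, 6.44, 6.33 and 6.20 with S42A and 6.27, 6.12 and 6.18 with wild-type Twist1. They were 6.16, 6.52 and 6.14 in the Tw1KD line and 6.39, 6.41 and 6.29 in parental cells. The wild-type Twist1 arrays lay below the parental ones without overlap, while S42D replicate 1 and Tw1KD replicate 2 stood apart from the other 2 arrays of their lines. Without S42D replicate 1, Dkk2 was higher in the S42D line than in the wild-type Twist1 line by 0.35 (adjusted p = 0.014 by limma). With arrays weighted by quality it was called there too, at 0.28 (adjusted p = 0.0079 by limma). Against the Tw1KD line the weighted difference was also 0.28 (adjusted p = 0.014 by limma). Dkk1 and Dkk2 were the 2 antagonists with line means above the background guide in all 5 lines.

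Dkk3, a more distant relative not known to bind Lrp6 as Dkk1 does, was read by probe set 10567010. Its log2 intensities were 5.87, 5.89 and 5.92 in the S42D line, 5.84, 5.79 and 5.88 with S42A and 5.53, 5.71 and 5.97 with wild-type Twist1. They were 5.88, 5.94 and 5.82 in the Tw1KD line and 5.85, 5.99 and 5.81 in parental cells. Only the wild-type Twist1 line was widely spread, and it overlapped every other line. Without its replicate 3, Dkk3 was lower in the wild-type Twist1 line than in the Tw1KD line by a difference of -0.26 (adjusted p = 0.0058 by limma). The S42D and S42A lines were then higher than the wild-type Twist1 line by 0.28 and 0.22 (adjusted p = 0.0042 and 0.019).

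Wif1 binds Wnt ligands in the extracellular space and was read by probe set 10366653, at 5.65, 5.64 and 5.83 in the S42D line, 5.99, 5.86 and 5.82 with S42A and 5.71, 5.67 and 5.83 with wild-type Twist1. They were 5.90, 5.82 and 5.70 in the Tw1KD line and 5.83, 5.92 and 5.80 in parental cells. All lines overlapped, and the S42A line had the highest mean. The S42D line differed from the S42A line by -0.18 ± 0.070, with an adjusted p of 0.053 by limma, the lowest of all tests on the 7 genes other than Sfrp1. Leaving out any 1 of Tw1KD replicates 1 and 3, wild-type Twist1 replicate 3, S42A replicate 3 and S42D replicate 3 took it past the threshold, with differences from -0.25 to -0.18 and adjusted p-values from 0.016 to 0.050. It also passed with centred arrays, at -0.26 with an adjusted p of 0.0051 by limma. Quantile normalization, leaving out the dimmest genes and weighting arrays by quality gave adjusted p-values of 0.043, 0.040 and 0.013 by limma.

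Promoter windows, from 250 bases before to 50 after the gene's start, were matched in the RefSeq table of assembly GRCm38.p6 for 5 of the 8 genes: Sfrp2, Frzb, Dkk1, Dkk2 and Wif1. The windows of Wif1 and Frzb are shown because they hold an E-box, CANNTG, the kind of element that Twist1 and other basic helix-loop-helix factors bind. The motif reads the same on both strands, and capitals mark each match. The Wif1 window lies at chr10:121033754-121034053 on the plus strand and the Frzb window at chr2:80447347-80447646 on the minus strand.
Wif1: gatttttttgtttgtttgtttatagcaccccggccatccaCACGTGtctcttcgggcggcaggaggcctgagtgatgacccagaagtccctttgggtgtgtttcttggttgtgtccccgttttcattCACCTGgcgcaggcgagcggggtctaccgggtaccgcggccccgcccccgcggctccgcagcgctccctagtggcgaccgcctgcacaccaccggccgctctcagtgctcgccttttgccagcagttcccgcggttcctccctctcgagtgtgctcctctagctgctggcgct
Frzb: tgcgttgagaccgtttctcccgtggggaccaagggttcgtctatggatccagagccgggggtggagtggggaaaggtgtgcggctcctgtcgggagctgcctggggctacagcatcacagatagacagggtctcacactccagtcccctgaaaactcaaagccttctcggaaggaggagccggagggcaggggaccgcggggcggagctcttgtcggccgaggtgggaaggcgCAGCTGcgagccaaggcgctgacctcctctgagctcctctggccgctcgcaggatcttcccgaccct
Wif1 holds 2 matches and Frzb 1, and the letters do not occur in the other 3 windows. An E-box occurs in 72.3% of the 32851 windows of the table, so a match is a description and not a binding site. No antagonist tested was called in the comparisons of the re-expressing lines with the Tw1KD line, those without an E-box included. Wif1 and Frzb also lay at or below the background guide in every line, so nothing is read from this about the motif. With arrays weighted by quality, Wif1 was called in the S42D against the Tw1KD line, at -0.16 (adjusted p = 0.048 by limma).

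For the 7 genes other than Sfrp1, the 6 comparisons among derived lines gave 42 tests in limma, a linear model fitted across all 19937 genes with Benjamini-Hochberg adjustment. Of these, 0 passed an adjusted p of 0.05 and 3 had an unadjusted p under 0.05. Over all 19937 genes, 8337 to 10659 had an unadjusted p under 0.05 in each of the 6 comparisons. The shares of all 19937 genes called were 43.4% for the S42D line, 42.5% for the S42A line and 48.0% for the wild-type Twist1 line against the Tw1KD line. They were 36.1% for the S42D against the S42A line, 43.3% for the S42D against the wild-type Twist1 line and 40.0% for the S42A against the wild-type Twist1 line. The 3 values with a low unadjusted p were Sfrp2 in the S42D against the Tw1KD line, Wif1 in the S42D against the S42A line and Wif1 in the S42A against the wild-type Twist1 line. The differences lay between -0.19 and 0.22, and the 95% intervals between -0.36 and 0.47. A missed threshold does not show that lines were alike, and the intervals give the sizes left possible. Weighting arrays by their quality gave 9 calls over the same 42 tests.

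**Figure D3:**
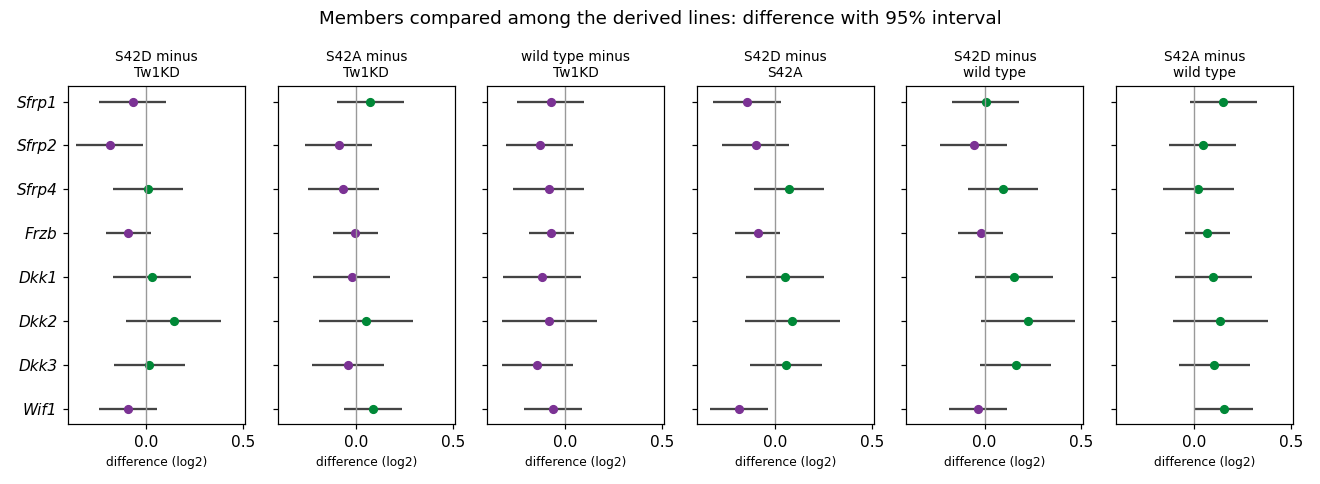
Differences in log2 intensity between derived lines (horizontal axis), first line minus second, for each of the 8 antagonist genes, with points for estimates and bars for 95% intervals from limma. Green points are 0 or above and purple points below 0. All differences lie between -0.19 and 0.22.

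With Sfrp1 counted in, arrays of 2 lines did not overlap in 5 of 48 cases: Sfrp1 and Sfrp2 in the S42D against the S42A line, Sfrp2 in the S42D and Dkk1 in the wild-type Twist1 against the Tw1KD line, and Dkk1 in the S42D against the wild-type Twist1 line. Over all genes, arrays did not overlap in 46.2% for the S42D against the S42A line, 49.3% for the S42D against the Tw1KD line, 53.9% for the wild-type Twist1 against the Tw1KD line and 53.4% for the S42D against the wild-type Twist1 line. The 2 comparisons with no such antagonist, the S42A against the Tw1KD line and the S42A against the wild-type Twist1 line, had 46.8% and 51.5%. Against parental cells, Sfrp1 did not overlap in any of the 4 derived lines, and 3 of the 28 values of the other genes did not. Those 3 were Frzb in the S42D line and Dkk1 and Dkk2 in the wild-type Twist1 line. The shares over all genes were 47.9%, 48.1%, 58.8% and 41.6% for the S42D, S42A, wild-type Twist1 and Tw1KD lines against parental cells, and nothing is read from them for Sfrp1.

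Most of the 7 genes lay near background. Sfrp2, Sfrp4, Frzb, Dkk3 and Wif1 had line means at or below the guide in all 5 lines, and a gene near background has little room to show a decrease. Over the 10 comparisons, the median difference of the 7 genes lay between -0.11 and 0.099 and that of the olfactory receptor genes between -0.19 and 0.032. In the wild-type Twist1 line both were lower, at -0.087 and -0.12 against the Tw1KD line and at -0.11 and -0.17 against parental cells, beside -0.061 and -0.050 for all genes. In the S42D line they did not go together. The 7 genes and the olfactory receptor genes had medians of -0.020 and -0.19 against parental cells, 0.052 and -0.050 against the S42A line and 0.096 and -0.017 against the wild-type Twist1 line.

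Other genes of the Wnt pathway did differ between these lines. Of 99 listed genes in 5 lists, 97 were measured, and these were tested in all 10 comparisons. Against parental cells, 19 were higher and 30 lower in the S42D line, 15 higher and 33 lower in the S42A line, 16 higher and 39 lower with wild-type Twist1 and 18 higher and 26 lower in the Tw1KD line. The shares called among the 97 were 50.5%, 49.5%, 56.7% and 45.4% in the same order, beside 37.0%, 40.3%, 49.0% and 36.3% of all genes. By direction, 19.8% of all genes were higher and 17.2% lower in the S42D line, 22.6% and 17.7% in the S42A line, 25.0% and 24.0% with wild-type Twist1 and 19.9% and 16.4% in the Tw1KD line. Against the Tw1KD line, 25 were higher and 21 lower in the S42D line, 19 higher and 23 lower in the S42A line and 21 higher and 25 lower in the wild-type Twist1 line. Of all genes, 21.7% were higher and 21.7% lower in the S42D line, 22.8% and 19.7% with S42A and 23.5% and 24.5% with wild-type Twist1. Among the re-expressing lines, 28 were higher and 9 lower in the S42D against the S42A line, 26 higher and 19 lower in the S42D against the wild-type Twist1 line and 20 higher and 24 lower in the S42A against the wild-type Twist1 line. The shares of all genes were 17.1% higher and 19.1% lower, 20.7% and 22.6%, and 20.0% and 20.0% in the same order. The balance of higher and lower genes depends on the scaling: with each array centred on its median, 24 were higher and 20 lower in the S42D against the S42A line, and 17 higher and 27 lower in the S42D against the Tw1KD line. The balance of all 19937 genes moved too. With centring, 2615 were higher and 6099 lower in the S42D against the S42A line. In the S42D against the Tw1KD line, 3742 were higher and 5742 lower. The genes named next are among those of the lists with a called difference over 1 log2 in some comparison, a limit chosen after their values were seen.

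Among 16 other extracellular modulators, 4 were higher and 1 lower in the S42D line, 2 higher and 1 lower in the S42A line and 3 higher and 4 lower in the wild-type Twist1 line than in the Tw1KD line. With centred arrays these were 4 and 3, 2 and 1, and 3 and 2. Apcdd1, a membrane protein that binds Wnt ligands and inhibits signalling, had log2 intensities of 11.02, 11.05 and 11.01 in the S42D line, 10.35 on each of the S42A arrays and 11.00, 11.07 and 11.01 in the wild-type Twist1 line, against 9.19, 9.15 and 9.18 in the Tw1KD line. All 3 re-expressing lines were above the Tw1KD line without overlap, by 1.85, 1.17 and 1.85 (SE 0.038). Its parental values of 9.49, 9.47 and 9.39 lay above the Tw1KD line and below the 3 re-expressing lines, an arrangement unlike that of Sfrp1.

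Notum, an enzyme that removes the lipid from Wnt ligands, had log2 intensities of 8.63, 8.54 and 8.55 in the S42D line, 6.87, 6.34 and 6.21 with S42A and 7.42, 7.41 and 7.51 with wild-type Twist1, against 8.96, 8.81 and 8.85 in the Tw1KD line and 7.90, 7.88 and 7.92 in parental cells. It was higher in the Tw1KD line than in parental cells by 0.98 and fell by 2.40 in the S42A line relative to the Tw1KD line. Kremen1, a receptor through which Dkk1 removes Lrp6 from the cell surface, read 10.65, 10.65 and 10.63 in the S42D line and 9.47, 9.52 and 9.53 in the wild-type Twist1 line, against 9.97, 9.95 and 9.95 in the Tw1KD line. Kremen1 was thus above the Tw1KD line with S42D and below it with wild-type Twist1, while Dkk1 was not called in either comparison.

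Of 21 genes for Wnt ligands and their secretion, 1 was higher and 6 lower in the S42D line than in the Tw1KD line. In the S42A line 0 were higher and 8 lower, and in the wild-type Twist1 line 1 was higher and 6 lower. With centred arrays the lower ones numbered 7, 6 and 5. Wnt7a, a ligand, had log2 intensities of 5.998, 6.04 and 6.06 in the S42D line, 6.09, 6.05 and 5.89 with S42A and 5.997, 6.16 and 6.05 with wild-type Twist1, against 9.81, 9.40 and 9.42 in the Tw1KD line and 6.60, 6.56 and 6.50 in parental cells. Only the Tw1KD arrays were high. Wnt7a rose by 2.99 ± 0.091 in the Tw1KD line over parental cells. Relative to the Tw1KD line, the S42D, S42A and wild-type Twist1 lines differed by -3.51, -3.53 and -3.47. Its means in those 3 lines lay below the background guide, so these sizes may be understated. Wnt10a, another ligand, and Porcn, the enzyme that attaches the lipid to Wnt ligands, were lowest in the S42A line, at 8.51, 8.28 and 8.32 for Wnt10a and 7.52, 7.61 and 7.77 for Porcn.

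Of 21 receptors and co-receptors, 11 were lower in the S42D line than in parental cells, 9 in the S42A line, 11 with wild-type Twist1 and 9 in the Tw1KD line, and 3, 2, 4 and 4 were higher. With each array centred on its median, the lower ones numbered 11, 8, 8 and 9 and the higher ones 3, 4, 5 and 6. Lgr6, a receptor for R-spondins, had log2 intensities of 9.39, 9.37 and 9.43 in the S42A line, against 10.95, 10.98 and 10.99 in the wild-type Twist1 line. The S42A line was the one that stood apart, since Lgr6 read 10.82, 10.81 and 10.84 in the S42D line, 10.69, 10.66 and 10.65 in the Tw1KD line and 11.26, 11.21 and 11.26 in parental cells.

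Of 26 intracellular components, 7 were higher and 6 lower in the S42D line, 8 higher and 6 lower in the S42A line and 6 higher and 9 lower in the wild-type Twist1 line than in the Tw1KD line. With centred arrays the counts were 5 and 8 in the S42D line, 10 and 6 with S42A and 7 and 9 with wild-type Twist1. Tcf7l1, a Tcf factor that mostly represses, read 8.58, 8.40 and 8.46 in the S42D line, 8.10, 8.12 and 8.16 in the S42A line, 8.04, 8.06 and 8.05 with wild-type Twist1 and 8.38, 8.46 and 8.38 in the Tw1KD line, against 9.13, 9.03 and 9.08 in parental cells. It was lower in all derived lines than in parental cells, as Sfrp1 was, by a far smaller amount. Apc2, a relative of the beta-catenin destruction complex member Apc, read 7.97, 8.43 and 7.98 in the S42A line, against 6.36, 6.35 and 6.25 in the wild-type Twist1 line.

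Of 22 genes reported as beta-catenin targets, 6 were higher and 6 lower in the S42D line than in parental cells, 5 higher and 7 lower in the S42A line, 4 higher and 8 lower with wild-type Twist1 and 6 higher and 6 lower in the Tw1KD line. With centred arrays the counts were 6 and 6, 7 and 6, 6 and 6, and 6 and 5 in the same order. Some of them also stand in the other lists. Ccn4 was the target nearest to Sfrp1 in pattern, at 7.79, 7.82 and 7.73 in the S42D line, 7.67, 7.64 and 7.74 in the S42A line, 7.61, 7.62 and 7.74 with wild-type Twist1 and 7.39, 7.52 and 7.32 in the Tw1KD line, against 9.65, 9.64 and 9.92 in parental cells. It was lower in each derived line, by differences of -1.96, -2.05, -2.08 and -2.32 in the same order (SE 0.073). Unlike Sfrp1, Ccn4 stayed above the background guide in all derived lines. Ephb3, a receptor tyrosine kinase, took the course of Wnt7a, with 8.18, 8.17 and 8.39 in the Tw1KD line against 7.33, 6.99 and 7.17 in parental cells. It was lower than in the Tw1KD line by differences of -1.96, -2.10 and -2.22 in the S42D, S42A and wild-type Twist1 lines (SE 0.088), and its means with S42A and wild-type Twist1 lay near or below the guide.

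**Figure D4:**
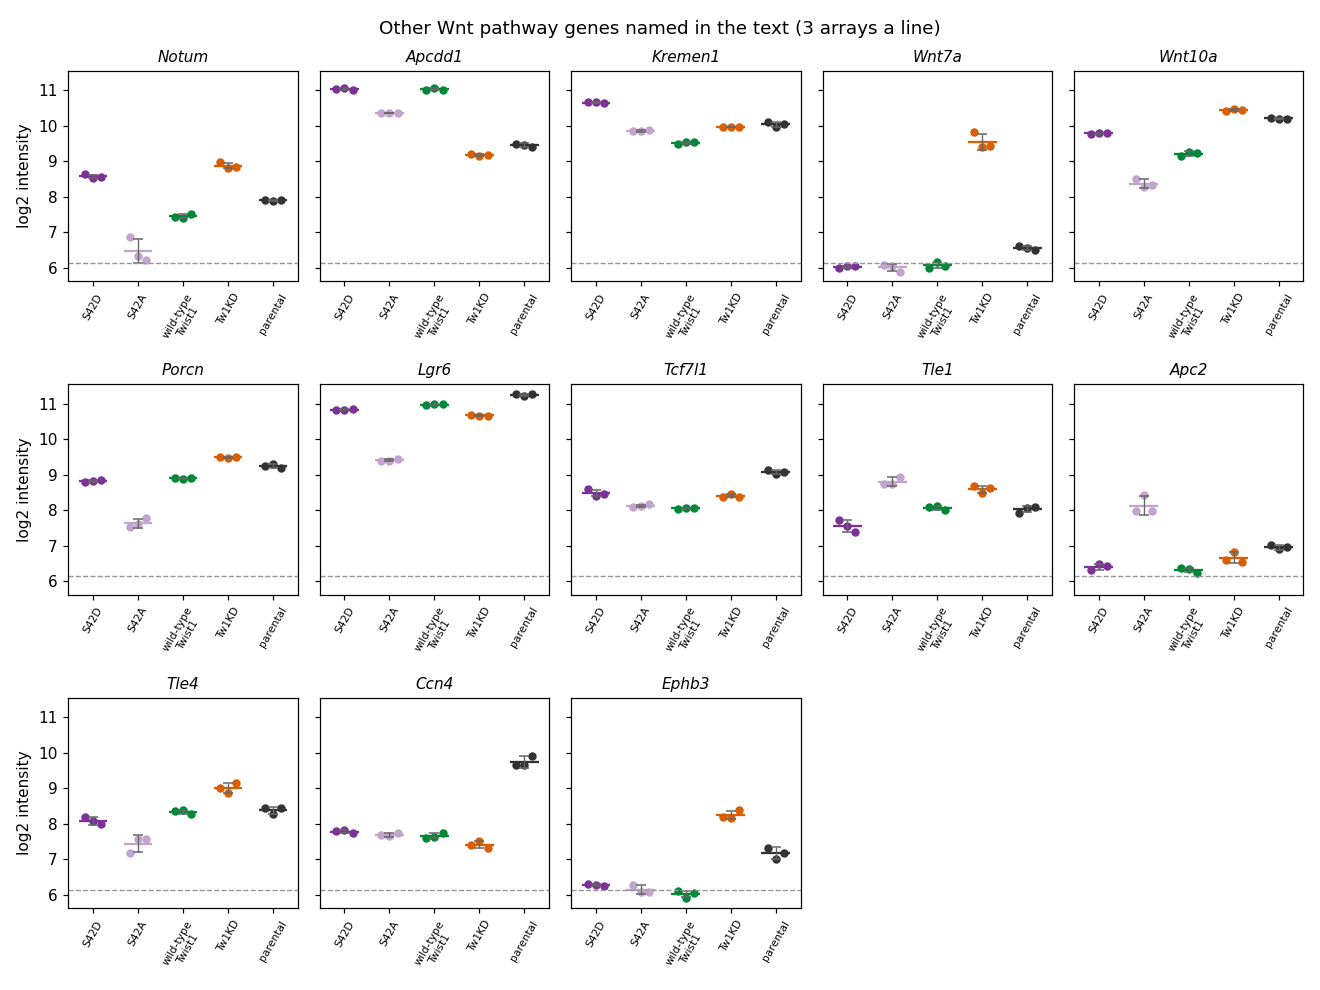
Log2 intensity (vertical axis) of 13 other Wnt pathway genes on the 3 arrays of each line, with means as thick lines, bars of 1 SD and the background guide at 6.15 dashed. Ccn4 is high in parental cells only, Wnt7a is high in the Tw1KD line only, and Apcdd1 is higher in the 3 re-expressing lines than in the Tw1KD line.

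Markers were read to see which cells the cultures held. Of 8 mammary epithelial markers, 7 lay above the background guide in the S42D line, 6 in the S42A line, 7 with wild-type Twist1 and 8 in both the Tw1KD line and parental cells. Krt8 was bright in all lines, with means from 12.89 to 13.18, and so was Krt18, from 12.31 to 12.71. Cdh1 differed far more, with means of 7.50, 6.34, 8.52 and 11.46 in the S42D, S42A, wild-type Twist1 and Tw1KD lines, against 10.31 in parental cells. Epcam was at 5.63, 5.55, 5.66 and 9.76 in the same order, against 8.36. Krt19 and Cldn4 were also highest in the Tw1KD line and lower in the re-expressing lines than in parental cells. Krt7 was also highest in the Tw1KD line, at 11.79. It was at 11.73, 11.09 and 10.10 in the S42D, S42A and wild-type Twist1 lines, against 10.88 in parental cells. Cldn7 means ran from 6.77 in the S42D line to 7.27 in the Tw1KD line. The summed level (log2) of the leukocyte list was higher in the derived lines than in parental cells, the opposite direction to Sfrp1. It was 10.86 to 10.94 in the S42D line, 10.52 to 10.57 in the S42A line and 10.12 to 10.15 with wild-type Twist1. In the Tw1KD line it was 10.60 to 10.71, against 9.23 to 9.34 in parental cells. The sum is carried by Cd68, and 2 of 6 leukocyte markers, Cd68 and Cd3e, lay above the guide in every line. Ptprc, which defines leukocytes, was at 5.11 to 5.23 in every line, below the guide. Of 8 fibroblast markers, 7 lay above the guide in the S42D line and 6 in every other line, and their summed level in parental cells, 11.77 to 11.84, lay between those of derived lines. Endothelial markers had 1 of 4 above the guide in the re-expressing lines, Cdh5, and 0 of 4 in the Tw1KD line and parental cells. Cdh5 had means of 10.67, 7.26 and 6.35 in the S42D, S42A and wild-type Twist1 lines, against 5.99 in the Tw1KD line and 5.66 in parental cells. The summed endothelial level was 10.76 to 10.80 in the S42D line, against 7.34 to 7.60 in parental cells. Pecam1, Kdr and Tek lay below the guide in all 5 lines. On an array none of these markers can be read as 0. The part of other cells in the Sfrp1 difference was not tested.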

How the data were processed

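Total RNA from 15 samples, 3 in each of 5 lines, was labelled and hybridised to arrays, 1 sample an array. The authors deposited 1 log2 intensity for each of 34760 probe sets. R 2.10.0 and the affy package are named per the submitters' processing notes. The background correction, scaling between arrays and summary over probes are not given in the sources used here, and scaling of any kind makes each difference relative to the other transcripts of the array.

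Probe sets with 1 gene symbol (21640) were kept, those with several (1321) or none (11799) were left out, and 21553 were matched to the RefSeq gene table of GRCm38.p6. The brightest probe set stood for each of 19937 genes, and no dim ones were removed. Groups came from the sample titles. A single linear model over the 15 arrays, with line as its only term, was run with limma 3.58.1 (R 4.3.3), and 2-sided p-values were adjusted over all genes and read at 0.05. Each member had 6 comparisons tested, among derived lines (for Sfrp1 read as a description), and other genes 10. The method was tested on simulated data. Members, lists, tests and rules were chosen with earlier results of these data known. All 8 members are named. For each pathway list and comparison, up to 2 genes a direction were eligible among called ones with no overlap of arrays, and those with a difference over 1 log2 are described. The 5 most alike genes are named for a member ranging over more than 1 log2. Lists are 5 of the pathway and 4 of cell markers.

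The labels do not say that replicates were separate cultures, so p-values measure the spread between these samples. Replicate numbers were not used to pair the samples. Deviations of same-numbered arrays had a median correlation of -0.038, with values from -0.39 to 0.42. For arrays of other numbers the median was 0.038, with values from -0.44 to 0.43. With so wide a spread this check cannot exclude pairing. Arrays of 1 line correlated at 0.997 to 0.999, and arrays of different lines at 0.975 to 0.987. The number of arrays limits the precision; over all genes the median SD in a line was 0.066 log2. Alternatives changed the scaling, probe sets, filter, model, weights or arrays used. The deposited tables gave no scan date or slide, so batches could not be tested.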

Additional observations from a re-analysis of the deposited data

Results flagged for a closer look

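None of the 7 antagonists tested had a called difference among the 3 re-expressing lines. Of the 13 other Wnt pathway genes described, 11 had one. Those 13 were picked for called differences over all 10 comparisons, these 3 included. Their count therefore tests nothing and cannot be set against that of the antagonists, which were not picked in this way. Such differences were common: 38.1%, 46.4% and 45.4% of the 97 pathway genes were called in the S42D against the S42A, the S42D against the wild-type Twist1 and the S42A against the wild-type Twist1 line, beside 36.1%, 43.3% and 40.0% of all genes. Each difference was called by limma. In the S42D line against the S42A line, Notum differed by 2.10, Wnt10a by 1.42, Apcdd1 by 0.68 and the corepressor Tle1 by -1.25 on the log2 scale. In the S42D line against the wild-type Twist1 line, Kremen1 differed by 1.14, Tcf7l1 by 0.43 and Ephb3 by 0.27. In the S42A line against the wild-type Twist1 line, Apc2 differed by 1.81, the corepressor Tle4 by -0.90, Porcn by -1.26 and Lgr6 by -1.57. The Ephb3 call was lost with arrays centred on their medians (0.17) and without wild-type Twist1 replicate 2 (0.21), S42D replicate 1 (0.25) or S42D replicate 2 (0.27). For each gene the largest of the 3 differences among re-expressing lines is given. In the same comparisons Sfrp1 differed by -0.14, 0.0066 and 0.15.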

How the results depend on the processing

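Sfrp1 kept its difference from parental cells, between -4.30 and -3.97, under all 24 alternatives, and no called result changed direction. Of 1140 repeats of member tests among the derived lines, 1110 kept their side of the threshold and 30 passed it where the original did not. These counts include the repeats for Sfrp1, which is a description here and not a test. The number of members called, 0 originally, was 3 for the S42D against the S42A line with centred arrays. Those 3 were Frzb, Wif1 and Sfrp1, and nothing is read from the last, because the family was chosen by its values. The same comparison gave 1 with quantile normalization, 1 with the dimmest genes left out and 2 with array weights. For the S42D against the Tw1KD line the number of members called was 1 with centred arrays, 1 with only those 2 lines fitted and 3 with array weights. Array weights gave 1 for the S42A and 1 for the wild-type Twist1 against the Tw1KD line, and 2 for the S42D against the wild-type Twist1 line. Leaving out 1 array gave 0 to 1 in every comparison except the S42A against the Tw1KD line, which stayed at 0. The cause was not tested. With the replicate block the members called were 0 in all 6 comparisons, and the genes called in the S42D against the Tw1KD line were 8544, against 8646 without it. The background guide at the 90th percentile, added after seeing the data, left 3 members dim in all lines in place of 5, and at the 99th percentile 7. Centring moved the median of all genes in the wild-type Twist1 line against parental cells by 0.10. It moved the share of higher genes among those called to 71.7% from 56.1% (S42A), 68.4% from 51.0% (wild-type Twist1) and 65.2% from 54.8% (Tw1KD) against parental cells. For the S42D line it became 39.5% from 49.98% against the Tw1KD line, 30.0% from 47.2% against the S42A line and 33.2% from 47.9% against the wild-type Twist1 line. Signal near background limits what could be seen in 5 members.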
